A study of Mus musculus with 18 samples.

Results

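The SWI/SNF complexes are large assemblies that use ATP to slide or eject nucleosomes and so open or close DNA to transcription factors. The BAF and PBAF forms are built around an ATPase, Smarca4 (BRG1) or its alternative Smarca2 (BRM), on a core with Smarcb1 and the actin-like Actl6a. They also hold 1 of the Smarcd proteins. Arid1a or Arid1b defines the BAF form, and Pbrm1 belongs to the PBAF form. The noncanonical BAF form named below is not covered by this outline. In muscle, Smarcd3 (BAF60c) is known as the partner of MyoD at muscle promoters before they are activated, while Smarcd1 (BAF60a) and Smarcd2 (BAF60b) are the more widely expressed alternatives. The genes described here are 10 of the 55450 gene IDs in the count table, listed by symbol with earlier results of these data already known. They are Smarca2, Smarca4, Smarcb1, Smarcd1, Smarcd2, Smarcd3, Arid1a, Arid1b, Pbrm1 and Actl6a. All 10 were found, and all 10 passed the filter on low counts.

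Polyadenylated RNA was sequenced from C2C12 mouse myoblasts, an established line whose cells fuse to myotubes once serum is lowered, to ask how the dosage of the imprinted Dlk1-Dio3 noncoding RNA cluster bears on muscle cell state. The 18 libraries form 6 groups of 3 (replicates A, B and C). The control was a sorted population, not a clone, that received the pX458 Cas9 vector without guides. The lines labelled Dlk1-Dio3 overexpressor and Dlk1-Dio3 knockout were each 1 clone, grown from a single cell after Cas9 and guide pairs had been aimed at the proximal promoter of Meg3, the first noncoding gene of the cluster. All lines had been transfected with PEI and sorted for EGFP. Myoblasts were kept in DMEM with 10% fetal bovine serum, and myotubes were taken on day 3 in DMEM with 2% horse serum, with penicillin, streptomycin and glutamine in both media. With 1 line per genotype, genotype and clone cannot be told apart. The labels do not say whether replicates were separate cultures, so p-values measure the spread between these samples, which may be technical.

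Library totals ran from 41544358 to 79140702 counts. Meg3 had 0 counts in all 6 control and all 6 knockout libraries and 5222 to 7763 counts in the overexpressor libraries. It therefore set the overexpressor apart and did not separate control from knockout, so directions given for the knockout rest on its label. Replicate C of the overexpressor myotubes stood apart from its group, with a chi-square per gene of 118 and 112 against replicates A and B, which differed from each other by 22.8. Results whose test outcome changed without it are given where they occur. Other values kept their outcome but moved in size. With each library left out in turn, the log2 fold change of overexpressor myotubes against control ranged from -0.77 to -0.49 for Smarcb1. It ranged from -0.74 to -0.50 for Smarcd1 and from -0.52 to -0.36 for Arid1a. Levels are given as CPM, edgeR's count unit scaled by the library total and the TMM factor. Fold changes, their standard errors (SE) and adjusted p-values are from edgeR's quasi-likelihood test over 17912 genes, and a gene was called where the adjusted p was under 0.05. In bulk RNA, fewer cells of a type and less RNA per cell cannot be told apart.

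The sequences that bear on the Smarcd genes are given first. The muscle microRNAs miR-206 and miR-133b lie close together on chromosome 1 (GRCm38.p6, chr1:20679055-20679076 and chr1:20682834-20682855, plus strand), and myogenic microRNAs are known to repress some Smarcd genes during muscle development. Mature microRNAs were not measured in this polyadenylated RNA. Their mature sequences are from RefSeq, with the seed, bases 2 to 8, in capitals.
mmu-miR-206-3p: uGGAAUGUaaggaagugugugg
mmu-miR-133b-3p: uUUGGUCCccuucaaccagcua
The 3′ UTR of the longest coding transcript of each subunit (GENCODE vM21, GRCm38) was searched for the letters that pair with these seeds, ACATTCC for miR-206 and GGACCAA for miR-133b. Among the Smarcd genes 1 match was found, for miR-133b in Smarcd1 (chr15:99713910-99713934, plus strand). Smarca4 held 2 matches for miR-206 (chr9:21702969-21702988 and chr9:21704023-21704047, plus strand) and Smarcb1 held 1 (chr10:75896897-75896921, minus strand). The sites are shown with the matched letters in capitals.
Smarcd1, miR-133b match: ttgttttcatGGACCAAaatttttt
Smarca4, first miR-206 match: accagACATTCCtgagtcct
Smarca4, second miR-206 match: tgtatcaagtACATTCCtagagcct
Smarcb1, miR-206 match: ccttcagcacACATTCCatttgcta
Such letters are common: 10.1% of 20548 genes with a 3′ UTR held the miR-206 match and 7.8% the miR-133b match. A match is a description of the letters, not evidence of binding.

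Upstream DNA is shown for the subunits whose levels differed most between lines, and for Smarcd1 beside them. The E-box CANNTG, a palindromic pattern that covers both strands and that MyoD and its relatives bind in the form CAGCTG among others, was searched in the 250 bases before each RefSeq start (GRCm38.p6). It was present in 4 of the 11 windows of the 10 subunits, against 66.2% of 32851 windows of the same length, and CAGCTG was present in 13.0% of all windows. In Smarcd3 a CAGCTG began 237 bases before the start, and in Smarca2 a CAACTG began 120 bases before it. Smarcd2, which like Smarcd1 was lower in both clones, held a CATTTG at 81 and a CAGGTG at 40 bases. Pbrm1 held a CACGTG at 135 bases. The windows of Smarcd3 and Smarcd2 (chr11:106267633-106267882, minus strand) lie before RefSeq starts inside the annotated genes, not before the outermost annotated starts. The genes span chr5:24590818-24624411 and chr11:106263179-106272972 (both minus strand). The parts of these windows outside annotated exons are Smarcd3 chr5:24602013-24602252 (minus strand), Smarca2 chr19:26604910-26605049 and Smarcd1 chr15:99702037-99702128 (both plus strand), with E-boxes in capitals.
Smarcd3: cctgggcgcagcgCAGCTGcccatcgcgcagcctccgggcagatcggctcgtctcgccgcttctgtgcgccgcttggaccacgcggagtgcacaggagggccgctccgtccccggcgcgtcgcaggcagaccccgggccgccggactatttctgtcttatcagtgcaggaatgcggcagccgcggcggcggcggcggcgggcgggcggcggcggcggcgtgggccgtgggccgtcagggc
Smarca2: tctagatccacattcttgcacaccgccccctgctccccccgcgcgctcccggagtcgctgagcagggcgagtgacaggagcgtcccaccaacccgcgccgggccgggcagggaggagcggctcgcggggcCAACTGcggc
Smarcd1: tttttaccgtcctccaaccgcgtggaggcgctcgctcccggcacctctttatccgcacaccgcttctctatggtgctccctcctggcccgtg
The Smarcd1 stretch held no E-box letters, which says only that these letters are not in this window.

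Against control, most of the 10 subunits differed in both clones, and at both stages both had less Smarca2, Smarcd1, Smarcd2 and Arid1a and more Smarcd3. In overexpressor myoblasts 1 subunit was higher and 5 were lower than in control, or 6 of 10 called, where 40.4% of all genes tested were called (20.7% higher and 19.7% lower). Knockout myoblasts had 1 higher and 6 lower, against 53% of all genes (26.4% higher and 26.6% lower). Among myotubes, the overexpressor had 2 higher and 7 lower, against 57.1% of all genes (26.2% higher and 30.9% lower). The knockout myotubes had 3 higher and 5 lower, against 68% of all genes (31% higher and 37% lower). With so many genes called in general, a single count says little about the subunits, and the sizes of their changes are given below by role. Both clones were compared with the same control libraries, so the comparisons are not independent of each other.

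The middle of the subunits lay slightly below that of all genes in each of these comparisons. The median log2 fold change of the 10 subunits was -0.19 in overexpressor and -0.16 in knockout myoblasts, where the medians of all genes were 0.02 and 0.02. Myotube medians were -0.37 (overexpressor) and -0.24 (knockout), against -0.04 and -0.07 for all genes. Between the clones, 5 of 10 subunits were called in myoblasts, 2 higher and 3 lower in the overexpressor, where 52.6% of all genes were called (25.7% higher and 26.9% lower). In myotubes 8 of 10 were called between the clones, 1 higher and 7 lower in the overexpressor, where 59.7% of all genes were called (30.6% higher and 29.1% lower). In a fit of those myotube groups alone the count was 5.

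**Figure D1:**
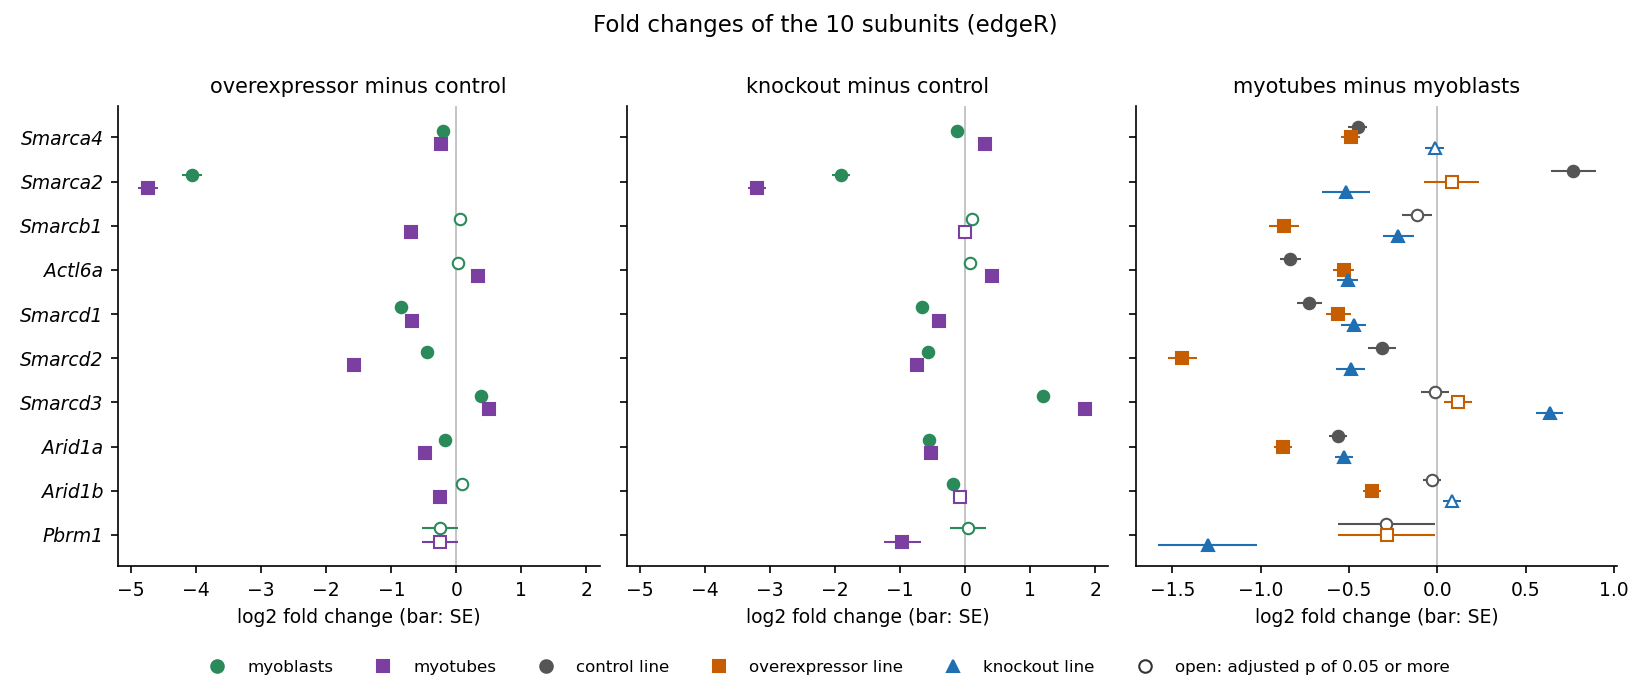
Log2 fold changes of the 10 subunits from edgeR, with SE bars: each clone against control in myoblasts (circles) and myotubes (squares), and myotubes against myoblasts within each line. Filled symbols had an adjusted p under 0.05; Smarca2 lies at -4.06 and -1.91 in the myoblast comparisons and at -4.75 and -3.20 in the myotube comparisons, while Smarcd3 lies above 0 in all 4. The third panel has its own scale.

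Among the ATPases, Smarca2 was far lower in both clones than in control, at both stages. Smarca2 (chromosome 19, 26605050 to 26778322) stood at 32.5, 34.3 and 31.6 CPM in the control myoblast libraries. The overexpressor myoblasts had 2.196, 1.66 and 2.03 CPM, and the knockout myoblasts 7.92, 9.54 and 8.65 CPM. No library of one line overlapped with any of another. In myotubes the control had 59.7, 49.0 and 58.9 CPM, the overexpressor 2.11, 1.61 and 2.53 CPM, and the knockout 6.73, 6.11 and 5.37 CPM. The overexpressor values rested on 77 to 182 counts per library, and the lines again did not overlap.

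The size of this difference was 16.7-fold in overexpressor myoblasts (log2 fold change -4.06, SE 0.15, edgeR adjusted p = 3.82e-13) and 26.8-fold in overexpressor myotubes (-4.75, SE 0.15, adjusted p = 2.29e-14). In the knockout, Smarca2 was 3.77-fold lower than control in myoblasts (-1.91, SE 0.13, adjusted p = 1.07e-09) and 9.19-fold lower in myotubes (-3.20, SE 0.14, adjusted p = 1.08e-12). It was also lower in the overexpressor than in the knockout, by a log2 fold change of -2.15 in myoblasts (SE 0.15, adjusted p = 8.91e-10) and -1.55 in myotubes (SE 0.14, adjusted p = 8.52e-08). Ordered by level, control myotubes stood above control myoblasts, then knockout myoblasts, knockout myotubes and the overexpressor groups, and only the overexpressor myoblast and myotube libraries overlapped.

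Smarca2 went different ways on differentiation in the 3 lines. It rose 1.70-fold in control (log2 fold change 0.77, SE 0.13, edgeR adjusted p = 3.88e-05) and fell in the knockout (-0.52, SE 0.14, adjusted p = 0.00274). In the overexpressor the change was 0.08 (SE 0.16, adjusted p = 0.674). The response of the knockout differed from that of control by -1.29 (SE 0.19, adjusted p = 1.77e-05). That of the overexpressor differed from control by -0.69 (SE 0.20, adjusted p = 0.0111), a call that was lost when libraries were scaled by totals (-0.50, adjusted p = 0.0601).

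Smarca4, the more abundant ATPase, changed little by comparison. Smarca4 (chromosome 9, 21616169 to 21704230) lay between 393 and 411 CPM in control myoblasts, 340 and 359 CPM in the overexpressor and 360 and 371 CPM in the knockout. In myotubes the ranges were 291 to 295 CPM in control, 232 to 260 CPM in the overexpressor and 342 to 374 CPM in the knockout. The groups did not overlap between lines at either stage. In knockout myotubes Smarca4 was higher than control (log2 fold change 0.30, SE 0.05, edgeR adjusted p = 7.98e-05).

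In overexpressor myoblasts Smarca4 was lower than control (log2 fold change -0.20, SE 0.05, edgeR adjusted p = 0.00563). The lower value in knockout myoblasts (-0.14, SE 0.05, adjusted p = 0.0415) lost its call when any of the 6 libraries was left out (highest adjusted p = 0.130) and with DESeq2's size factors (-0.16, adjusted p = 0.0590). In overexpressor myotubes the value of -0.24 (SE 0.05, adjusted p = 0.000887) shrank to -0.09 (adjusted p = 0.202) without replicate C of that group. It was also not called with DESeq2's size factors (-0.13, adjusted p = 0.124) or with library totals (-0.09, adjusted p = 0.129). On differentiation Smarca4 fell in control (-0.45, SE 0.05, adjusted p = 7.29e-07, and -0.69 with library totals) and in the overexpressor (-0.49, SE 0.05, adjusted p = 2.35e-07). In the knockout it stood at -0.01 (SE 0.05, adjusted p = 0.824), and the knockout response differed from that of control by 0.44 (SE 0.08, adjusted p = 0.000126).

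As a ratio within each library, which no scaling can move, Smarca2 relative to Smarca4 per kilobase of exon had a log2 value of -4.75 ± 0.08 in control myoblasts, against -8.62 ± 0.18 in those of the overexpressor and -6.53 ± 0.13 in those of the knockout (SD, n = 3). The myotube values, in the same order, were -3.54 ± 0.15, -8.06 ± 0.39 and -7.04 ± 0.23. The level of this ratio depends on the lengths used, while its differences between groups do not. With the longest coding transcript, Smarca2 in control myoblasts was at 5.54 CPM per kilobase instead of 2.30, and Smarca4 at 62.9 instead of 61.9. The groups of different lines did not overlap at either stage, where an exact two-sided permutation test of 3 against 3 libraries cannot go below p = 0.1. The stage difference, myotubes minus myoblasts, was 1.21 for control, 0.56 for the overexpressor and -0.51 for the knockout. Averaged over the lines, it was 0.42 and did not pass an exact permutation test of stage within line (p = 0.0633, two-sided, adjusted over 3 ratio measures 0.0633). Without replicate B of overexpressor myotubes it was 0.49 (exact p = 0.0443, not adjusted), and without replicate C of knockout myotubes 0.46 (exact p = 0.0390, not adjusted).

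**Figure D2:**
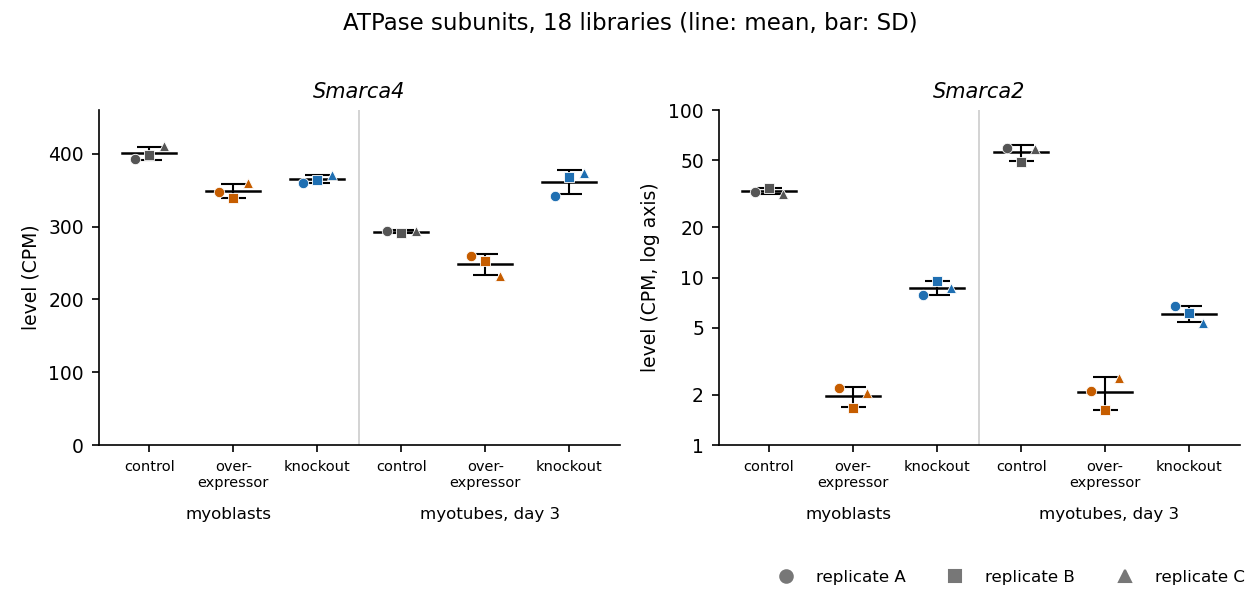
Levels of the ATPases Smarca4 (linear axis from 0) and Smarca2 (log axis) in CPM in all 18 libraries, by line and stage, with the mean (line) and SD (bar) of each group of 3. Smarca4 stays between 232 and 411 CPM, whereas Smarca2 runs from 1.61 CPM in an overexpressor myotube library to 59.7 CPM in a control myotube library.

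Within each stage, the lines with less Smarca2 also had less Col1a1, the collagen gene that dominates the fibroblast marker list. Mean Col1a1 levels were 779, 9.85 and 429 CPM in control, overexpressor and knockout myoblasts and 6184, 395 and 1437 CPM in the corresponding myotubes. The summed level of the 4 fibroblast markers (Pdgfra, Col1a1, Dcn and Lum) ran from 788 to 839 CPM in control, 42.0 to 45.8 CPM in overexpressor and 388 to 613 CPM in knockout myoblasts. Among myotubes the sum was 5776 to 6835 CPM in control, 319 to 495 CPM in the overexpressor and 1366 to 1599 CPM in the knockout. Its members did not all go one way. Against control, 1 of 4 was called higher and 2 lower in overexpressor myoblasts, and 3 higher and 1 lower in knockout myoblasts. In myotubes 4 were called lower in the overexpressor and 2 in the knockout. The shares of all genes called in these comparisons were 40.4%, 53%, 57.1% and 68%, so counts out of 4 say little. The part of these genes in the Smarca2 result was not tested.

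The core subunits moved less, and mainly in myotubes. Smarcb1 (chromosome 10, 75896769 to 75921617), a core subunit known as a tumour suppressor, ranged from 154 to 179 CPM over all 9 myoblast libraries. In myotubes it was 138 to 159 CPM in control and 140 to 160 CPM in the knockout, and 101, 98.9 and 77.8 CPM in the overexpressor, below every other library. That was 1.63-fold lower than control (log2 fold change -0.70, SE 0.09, edgeR adjusted p = 1.50e-06).

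On differentiation Smarcb1 fell in the overexpressor (log2 fold change -0.87, SE 0.09, edgeR adjusted p = 7.15e-08), and this response differed from that of control by -0.75 (SE 0.12, adjusted p = 7.28e-05). In control it stood at -0.12 (SE 0.09, adjusted p = 0.253). The lower value on differentiation in the knockout (-0.22, SE 0.09, adjusted p = 0.0325) was lost in 5 of the 6 fits without 1 library (highest adjusted p = 0.124), namely without any myoblast replicate or without myotube replicate A or B. With DESeq2's size factors it was -0.09 (adjusted p = 0.421), and with library totals -0.39 (adjusted p = 0.000491).

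Actl6a (chromosome 3, 32706298 to 32726973), the actin-related subunit of dividing cells that is exchanged for Actl6b in neurons, was at 81.8 to 90.5 CPM over the 9 myoblast libraries of the 3 lines. It fell on differentiation in each line, by a log2 fold change of -0.83 in control (SE 0.06, edgeR adjusted p = 7.42e-10), -0.53 in the overexpressor (SE 0.06, adjusted p = 3.10e-07) and -0.51 in the knockout (SE 0.06, adjusted p = 7.56e-07). Myotubes had 46.8 to 48.2 CPM in control, 57.1 to 65.1 CPM in the overexpressor and 60.1 to 65.5 CPM in the knockout, so both clones lay above every control library. The fall was smaller than in control by 0.30 in the overexpressor (SE 0.08, adjusted p = 0.00740, and 0.49 with library totals) and by 0.33 in the knockout (SE 0.08, adjusted p = 0.00376). Exons of Mrpl47 on the other strand cover 11.6% of the Actl6a exons. The sources used here do not give the strand setting of the counting, so reads of the pair may be mixed. Mrpl47 rose on differentiation in control (0.47) and the overexpressor (0.59), where Actl6a fell, and it fell in the knockout (-0.41), as did Actl6a.

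The Smarcd genes went apart: both clones had less Smarcd1 and Smarcd2 and more Smarcd3 than control, at both stages. Smarcd3 (chromosome 5, 24590818 to 24624411) stood at 89.96, 95.6 and 93.1 CPM in control myoblasts, 125, 108 and 128 CPM in the overexpressor and 207, 212 and 215 CPM in the knockout. In myotubes the values were 96.4, 95.4 and 84.8 CPM in control, 142, 126 and 123 CPM in the overexpressor and 303, 326 and 357 CPM in the knockout. The knockout libraries were the highest at each stage, the overexpressor lay between, and no lines overlapped. Against control, Smarcd3 was 2.28-fold higher in knockout myoblasts (log2 fold change 1.19, SE 0.08, edgeR adjusted p = 5.97e-10) and 3.57-fold higher in knockout myotubes (1.83, SE 0.08, adjusted p = 1.16e-12). In the overexpressor it was 1.29-fold higher in myoblasts (0.37, SE 0.08, adjusted p = 0.000876) and 1.41-fold higher in myotubes (0.50, SE 0.08, adjusted p = 2.60e-05).

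Smarcd1 (chromosome 15, 99702129 to 99713991) was at 79.5, 82.4 and 83.4 CPM in control myoblasts, 47.5, 43.1 and 46.0 CPM in the overexpressor and 54.0, 50.9 and 50.3 CPM in the knockout. Its myotube levels were 50.2, 50.01 and 48.2 CPM in control, 32.0, 33.2 and 27.4 CPM in the overexpressor and 36.2, 36.4 and 39.2 CPM in the knockout. Control stood above both clones at each stage with no overlap. Relative to control the log2 fold change was -0.84 (SE 0.07, edgeR adjusted p = 1.76e-08) in overexpressor and -0.66 (SE 0.07, adjusted p = 2.71e-07) in knockout myoblasts. Overexpressor myotubes were at -0.68 (SE 0.07, adjusted p = 1.57e-07) and knockout myotubes at -0.41 (SE 0.07, adjusted p = 5.65e-05).

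Between the clones Smarcd1 was lower in the overexpressor, by -0.18 in myoblasts (SE 0.07, edgeR adjusted p = 0.0359) and -0.27 in myotubes (SE 0.07, adjusted p = 0.00314). The myoblast call was lost in 4 of 6 fits without 1 library, namely without overexpressor replicate B or C or knockout replicate A or B (highest adjusted p = 0.132), and with DESeq2's size factors (adjusted p = 0.114). The myotube value was -0.17 without overexpressor replicate C (adjusted p = 0.0563). With library totals it was -0.17 (adjusted p = 0.0414). In a fit of those groups alone it was -0.26 (adjusted p = 0.0830). Exons of Gm17349 and Gm34939 on the other strand overlap 12.7% of the Smarcd1 exons, so its reads too may be mixed. Both were at low levels, with 13 to 55 counts per library for Gm17349 and 0 to 9 for Gm34939. Smarcd1 had 1875 to 4285 counts, and the Gm17349 changes given next rest on its low counts. Gm17349 was higher than control in overexpressor myotubes (1.31, SE 0.29, adjusted p = 0.000914), where Smarcd1 was lower, and it fell together with Smarcd1 on differentiation in control (-1.28, SE 0.30, adjusted p = 0.00130).

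Smarcd2 (chromosome 11, 106263179 to 106272972) was the Smarcd gene furthest below control in overexpressor myotubes, where Smarcd1 was lowest as well. It was at 98.4, 106 and 107 CPM in control myoblasts, 77.4, 70.2 and 80.5 CPM in the overexpressor and 71.4, 68.8 and 69.8 CPM in the knockout, where the clones overlapped each other but not control. In myotubes it was at 86.4, 89.3 and 75.0 CPM in control, 30.2, 29.0 and 24.7 CPM in the overexpressor and 47.2, 50.001 and 52.2 CPM in the knockout, with no overlap. Overexpressor myotubes were 2.99-fold below control (log2 fold change -1.58, SE 0.08, edgeR adjusted p = 1.67e-11) and 1.78-fold below the knockout (-0.83, SE 0.08, adjusted p = 1.81e-07). In myoblasts the overexpressor was at -0.45 (SE 0.08, adjusted p = 0.000201) and the knockout at -0.57 (SE 0.08, adjusted p = 1.08e-05) against control. Knockout myotubes were at -0.75 (SE 0.08, adjusted p = 2.71e-07).

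Differentiation lowered Smarcd1 and Smarcd2 in every line, while Smarcd3 rose only in the knockout by the test. Smarcd1 fell by 0.72 on the log2 scale in control (SE 0.07, edgeR adjusted p = 4.89e-08), by 0.56 in the overexpressor (SE 0.07, adjusted p = 1.40e-06) and by 0.47 in the knockout (SE 0.07, adjusted p = 1.34e-05). Smarcd2 fell by 0.31 in control (SE 0.08, adjusted p = 0.00263, and by 0.56 with library totals), by 1.44 in the overexpressor (SE 0.08, adjusted p = 3.35e-11) and by 0.49 in the knockout (SE 0.08, adjusted p = 4.63e-05). Smarcd3 changed by -0.01 in control (SE 0.08, adjusted p = 0.911) and by 0.12 in the overexpressor (SE 0.08, adjusted p = 0.208), and rose by 0.64 in the knockout (SE 0.08, adjusted p = 1.51e-06). With library totals the control value was -0.25 (adjusted p = 0.00443), a setting that also moved the median of all genes from 0.07 to -0.17. The differences between these responses were tested as well. That of Smarcd2 was larger in the overexpressor than in control by -1.13 (SE 0.12, adjusted p = 3.52e-07), and that of Smarcd3 was higher in the knockout than in control by 0.65 (SE 0.11, adjusted p = 0.000114). The smaller fall of Smarcd1 in the knockout (0.25, SE 0.10, adjusted p = 0.0430) was lost in 9 of 12 fits without 1 library (highest adjusted p = 0.0984), the exceptions being those without control myoblast replicate A, knockout myoblast replicate A or knockout myotube replicate A. With DESeq2's size factors it was 0.41 (adjusted p = 0.00768). In the overexpressor the difference for Smarcd1 was 0.16 (SE 0.10, adjusted p = 0.214). Leaving out replicate C of the overexpressor myotubes gave 0.35 (adjusted p = 0.00537).

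The subunit composition was then read as the share of Smarcd3 in the summed per-kilobase level of the 3 Smarcd genes, a value that scaling between libraries cannot move. In control myoblasts the shares were 30.1% for Smarcd1, 42.9% for Smarcd2 and 26.9% for Smarcd3, so Smarcd2 led by exon length, an order that changed with other lengths. In knockout myotubes they were 10.6%, 15.9% and 73.5%, so Smarcd3 led by far. The Smarcd3 share in myoblasts was 26.9% ± 0.36 for control, 41.9% ± 0.81 for the overexpressor and 56.1% ± 1.09 for the knockout (SD, n = 3). The shares in myotubes were 33.6% ± 0.34, 62.2% ± 1.87 and 73.5% ± 0.69. No library of any group overlapped with a library of another group.

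From myoblasts to myotubes the Smarcd3 share was higher by 6.67 percentage points for control, 20.3 for the overexpressor and 17.4 for the knockout, and rose by 14.8 on average (exact two-sided permutation of stage within line, p = 0.00025, the smallest that 8000 arrangements can give, adjusted over 3 measures 0.000375). Within a single line the exact test of 3 against 3 libraries cannot go below p = 0.1, which all 3 lines reached. In control the higher share came with a Smarcd1 share that went from 30.1% to 23.0%, and a Smarcd2 share of 42.9% and 43.4%. In the overexpressor the Smarcd2 share went from 37.9% to 19.0%. Whether this difference varied between lines was not tested for the share itself.

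The size of the share depends on the length given to Smarcd3. Its exons overlap those of Chpf2, on the opposite strand, over 48.2% of their bases, and its longest transcript is a retained intron. With the length of the longest coding transcript, the Smarcd3 share was 46.1% in control myoblasts and 86.5% in knockout myotubes, and the average stage difference was 12.1 points. With only the exon bases that no other gene overlaps, it was 40.2% and 83.5%, and 13.1 points. Under these lengths, both chosen after seeing the data, Smarcd3 led in control myoblasts too, against 32.6% and 33.2% for Smarcd2. In myotubes Chpf2 went the other way than Smarcd3. Against control it stood at -0.10 in knockout myoblasts (SE 0.08, edgeR adjusted p = 0.335), and it was lower in knockout myotubes (-0.57, SE 0.08, adjusted p = 5.38e-06) and overexpressor myotubes (-0.86, SE 0.08, adjusted p = 4.13e-08). In overexpressor myoblasts it was higher (0.21, SE 0.08, adjusted p = 0.0410).

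**Figure D3:**
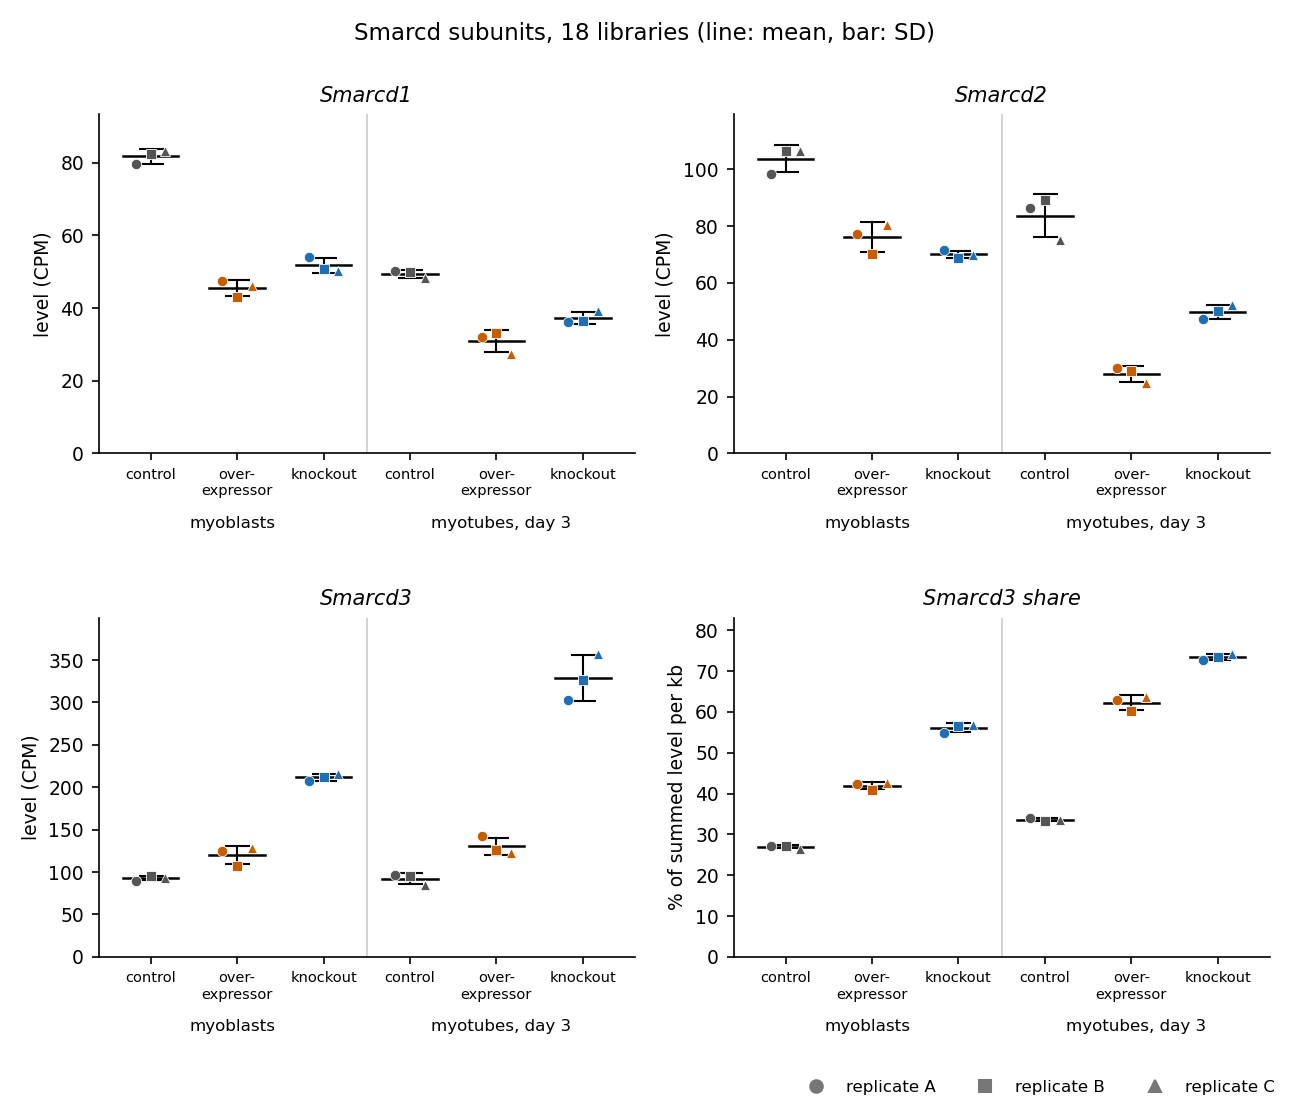
Levels of Smarcd1, Smarcd2 and Smarcd3 (CPM, axes from 0) and the Smarcd3 share of their summed per-kilobase level (percent) in all 18 libraries, with the mean (line) and SD (bar) of each group of 3. Smarcd1 and Smarcd2 are highest in control at each stage and Smarcd3 is lowest there, and the Smarcd3 share runs from 26.9% in control myoblasts to 73.5% in knockout myotubes.

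Muscle genes, taken as a sum over 10 markers, were higher in both clones than in control and higher in myotubes than in myoblasts. The summed level of 10 muscle markers ran from 1352 to 1576 CPM in control, 2645 to 3366 CPM in overexpressor and 12194 to 15141 CPM in knockout myoblasts. In myotubes it ran from 15962 to 16490 CPM in control, 26147 to 29284 CPM in the overexpressor and 36962 to 45078 CPM in the knockout. Of the 10 markers, 9 were higher and 0 lower than control in the myoblasts of each clone, where 40.4% (overexpressor) and 53% (knockout) of all genes were called. In the myotubes of each, 8 were higher and 0 lower, where 57.1% and 68% of all genes were called. On differentiation 8 markers rose and 1 fell in control, 8 and 2 in the overexpressor, and 9 and 1 in the knockout. The shares of all genes called there were 62.8%, 62.8% and 65.4%. Myf5 fell in control from a mean of 25.5 to 6.20 CPM. In each myotube group Acta1, Myh3 and Des had the highest mean levels of the list. The order of the groups by the summed muscle markers was not that of the Smarcd3 share. Control myotubes stood above the myoblasts of both clones in the former and below them in the latter. Single markers varied in this. By group means, control myotubes lay below the myoblasts of both clones for Myod1 and Myf5. For Des and Ckm they lay below the knockout myoblasts only, and for the other markers above both. The part of muscle gene level in the Smarcd results was not tested. Of the 13 markers of adipocytes, osteoblasts, endothelium and blood, 10 had at most 24 counts in any library, with at most 3 for the adipocyte genes Adipoq and Plin1, 4 for Bglap and 1 for Ibsp of osteoblasts, 9 for the endothelial Pecam1 and 11 for Ptprc of blood cells. The other 3 were higher, with Pparg at up to 975, Cd68 at up to 99 and Runx2 at up to 5434 counts. Runx2, a regulator of bone development, was lower in both clones, at 99.9, 42.3 and 56.0 CPM in control, overexpressor and knockout myoblasts and 72.5, 27.0 and 13.3 CPM in the corresponding myotubes. Pparg, a regulator of fat cell development, was at 11.4, 19.3 and 6.12 CPM in those myoblasts and 10.1, 7.66 and 3.82 CPM in those myotubes. The part of Runx2 and Pparg in the subunit results was not tested.

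Of the ARID subunits, which help the BAF form bind DNA, Arid1a fell on differentiation in every line and was lower in both clones than in control, while Arid1b changed less. Arid1a (chromosome 4, 133679008 to 133756769) ranged from 210 to 221 CPM in control, 185 to 191 CPM in overexpressor and 141 to 147 CPM in knockout myoblasts. In myotubes the ranges were 143 to 146 CPM in control, 98.4 to 107 CPM in the overexpressor and 94.9 to 105 CPM in the knockout, where the clones overlapped each other and lay below control. Against control the knockout was at -0.56 (SE 0.05, edgeR adjusted p = 4.77e-08) in myoblasts and -0.53 (SE 0.05, adjusted p = 6.90e-08) in myotubes, and the overexpressor at -0.49 (SE 0.05, adjusted p = 2.21e-07) in myotubes. The overexpressor myoblast value of -0.18 (SE 0.05, adjusted p = 0.0107) was lost without control myoblast replicate C (-0.15, adjusted p = 0.0541).

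On differentiation Arid1a fell in control (log2 fold change -0.56, SE 0.05, edgeR adjusted p = 2.81e-08), the overexpressor (-0.87, SE 0.05, adjusted p = 5.64e-11) and the knockout (-0.53, SE 0.05, adjusted p = 9.29e-08). The larger fall in the overexpressor than in control (-0.31, SE 0.07, adjusted p = 0.00224) was not called without overexpressor myotube replicate C (-0.17, adjusted p = 0.0938), with DESeq2's size factors (-0.20, adjusted p = 0.0819) or with library totals (-0.13, adjusted p = 0.226).

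Arid1b (chromosome 17, 4994332 to 5347656), the alternative to Arid1a, stayed within 76.3 to 102 CPM in all 18 libraries. In myoblasts it was 92.0 to 94.8 CPM in control, 97.2 to 102 CPM in the overexpressor and 79.1 to 84.6 CPM in the knockout. The knockout was lower than control (log2 fold change -0.19, SE 0.05, edgeR adjusted p = 0.00375), a call lost without the filter on low counts (adjusted p = 0.0533). In myotubes the overexpressor, at 76.3 to 77.2 CPM, lay below control at 90.6 to 92.3 CPM (-0.25, SE 0.05, adjusted p = 0.000295). That value was -0.15 without overexpressor replicate C (adjusted p = 0.0378), -0.14 with DESeq2's size factors (adjusted p = 0.0389) and -0.11 with library totals (adjusted p = 0.117).

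Arid1b fell on differentiation in the overexpressor (log2 fold change -0.37, SE 0.05, edgeR adjusted p = 3.61e-06), and this differed from the control response by -0.34 (SE 0.07, adjusted p = 0.000801), or -0.15 with library totals (adjusted p = 0.138). In the overexpressor myotubes it was below the knockout by -0.17 (SE 0.05, adjusted p = 0.00701), which was lost with library totals (-0.07, adjusted p = 0.266), without the filter (adjusted p = 0.140) and in a fit of those groups alone (adjusted p = 0.123).

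The log2 ratio of Arid1a to Arid1b per kilobase in myoblasts was 1.33 ± 0.06 for control, 1.07 ± 0.04 for the overexpressor and 0.96 ± 0.04 for the knockout (SD, n = 3), and 0.80 ± 0.02, 0.56 ± 0.06 and 0.35 ± 0.06 in myotubes. Arid1a thus stayed above Arid1b in every group. The stage difference of the ratio was -0.53 for control, -0.50 for the overexpressor and -0.61 for the knockout, and -0.55 on average (exact two-sided permutation of stage within line, p = 0.00025, adjusted over 3 measures 0.000375). At both stages the clones lay below control without overlap.

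Pbrm1 (chromosome 14, 31019138 to 31121592), the polybromo subunit of PBAF, varied far more between replicates than the other subunits. It was at 123, 93.9 and 103 CPM in control myoblasts, 70.0, 116 and 81.8 CPM in the overexpressor and 111, 111 and 107 CPM in the knockout, so the lines overlapped. In myotubes it was at 86.5, 73.4 and 102 CPM in control, 51.4, 55.7 and 113 CPM in the overexpressor and 58.9, 38.6 and 36.3 CPM in the knockout. Replicate C of the overexpressor myotubes was the highest of its stage, and only the knockout lay wholly below control. Knockout myotubes were 1.95-fold lower than control (log2 fold change -0.97, SE 0.28, edgeR adjusted p = 0.00698), and on differentiation the knockout fell by 1.30 (SE 0.28, adjusted p = 0.000984).

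In control Pbrm1 stood at -0.29 on differentiation (SE 0.28, edgeR adjusted p = 0.382) and in the overexpressor at -0.29 (SE 0.28, adjusted p = 0.385). Without overexpressor myotube replicate C, the overexpressor fell on differentiation by 0.70 (adjusted p = 0.0120) and its myotubes were below control by -0.60 (adjusted p = 0.0275), where the value over all libraries was -0.25 (adjusted p = 0.462). The knockout response differed from that of control by -1.01 (SE 0.39, adjusted p = 0.0448), but this call was lost in 9 of 12 fits without 1 library (highest adjusted p = 0.108), the exceptions being those without control myoblast replicate A, control myotube replicate B or knockout myotube replicate A. It was also lost with DESeq2's size factors (-0.86, adjusted p = 0.0707) and with library totals (-0.93, adjusted p = 0.0658). The higher value in overexpressor than in knockout myotubes (0.71, SE 0.28, adjusted p = 0.0393) rested on overexpressor replicate C, without which it was 0.29 (adjusted p = 0.276). That call was also lost without knockout replicate B (0.62, adjusted p = 0.119) or C (0.59, adjusted p = 0.142).

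**Figure D4:**
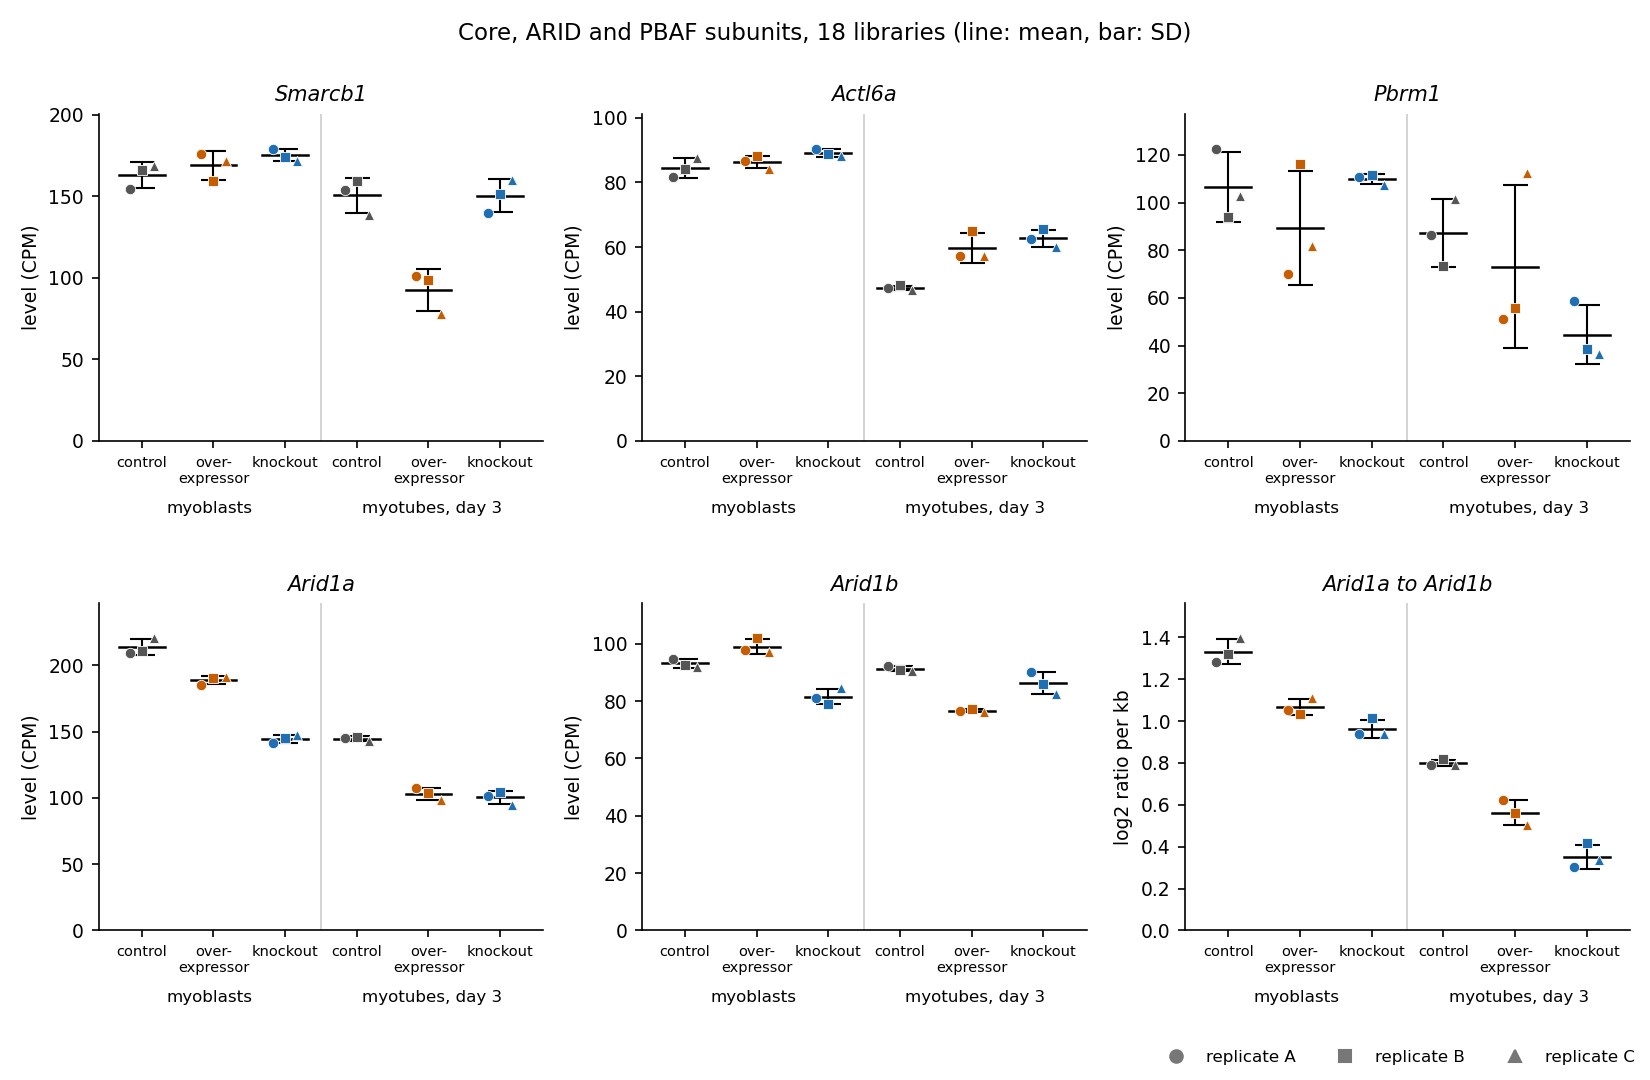
Levels of Smarcb1, Actl6a, Pbrm1, Arid1a and Arid1b (CPM, axes from 0) and the log2 ratio of Arid1a to Arid1b per kilobase in all 18 libraries, with the mean (line) and SD (bar) of each group of 3. The ratio falls from 1.33 in control myoblasts to 0.35 in knockout myotubes, overexpressor myotubes are lowest for Smarcb1, and Pbrm1 has the widest spread between replicates.

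Over the whole set, differentiation lowered more subunits than it raised. In control 1 of 10 was higher and 5 were lower in myotubes than in myoblasts, in the overexpressor 0 and 7, and in the knockout 1 and 7, where 62.8%, 62.8% and 65.4% of all genes were called. The lower direction alone held 28.8%, 33% and 35.6% of all genes, and the higher direction 33.9%, 29.8% and 29.8%. The median log2 fold change of the subunits was -0.30 for control, -0.51 for the overexpressor and -0.48 for the knockout, against 0.07, -0.02 and -0.08 for all genes. The subunits with a call in the lower direction in all 3 lines were Smarcd1, Smarcd2, Arid1a and Actl6a. Tested against control, the differentiation response differed for 6 subunits in the overexpressor (1 higher and 5 lower, where 39% of all genes were called, 16.6% higher and 22.3% lower). In the knockout it differed for 6 as well (4 higher and 2 lower, where 50.1% of all genes were called, 20.2% higher and 29.9% lower).

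Levels were compared between genes only per kilobase of exon. In control myoblasts Smarca4 led at 61.9 ± 1.40 CPM per kilobase, followed by Smarcd2 at 28.9 ± 1.31 (SD, n = 3). Next were Actl6a at 21.8 ± 0.77, Smarcb1 at 20.6 ± 0.99 and Smarcd1 at 20.3 ± 0.49. The Smarcb1 libraries overlapped those of both others, while those of Actl6a (21.0 to 22.6) lay above those of Smarcd1 (19.8 to 20.7). Arid1a at 18.6 ± 0.53 and Smarcd3 at 18.1 ± 0.55 overlapped each other. Pbrm1 at 12.04 ± 1.66, Arid1b at 7.39 ± 0.11 and Smarca2 at 2.30 ± 0.10 closed the order. In knockout myotubes Smarcd3 led, at 64.2 ± 5.27 CPM per kilobase, near Smarca4 at 55.8 ± 2.63. The order depends on the length used. With the longest coding transcript, Smarcb1 in control myoblasts was at 98.4 and Smarcd3 at 53.5 CPM per kilobase, against 62.9 for Smarca4.

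The remaining subunits of the BAF, PBAF and noncanonical BAF complexes formed a list of 18, of which 17 passed the filter (Actl6b, the neuronal counterpart of Actl6a, did not). In overexpressor myoblasts 0 were higher and 7 lower than control (40.4% of all genes called), and in knockout myoblasts 2 higher and 8 lower (53%). In overexpressor myotubes 2 were higher and 8 lower (57.1%), and in knockout myotubes 6 higher and 8 lower (68%). As shares of the 17 these were 41.2%, 58.8%, 58.8% and 82.4%. Their median log2 fold changes in these 4 comparisons lay between -0.17 and -0.09. On differentiation 7 rose and 7 fell in control, 6 and 7 in the overexpressor, and 6 and 5 in the knockout, where 62.8%, 62.8% and 65.4% of all genes were called.

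Among the named subunits lower than control in knockout myotubes were Phf10, Brd7 and Arid2 of PBAF. Also lower there were Smarcc2 of the scaffold, Ss18 of BAF and Bicral of the noncanonical form. Phf10, a PHD finger subunit of PBAF, was at 357 ± 29.5 CPM in control, 130 ± 23.5 CPM in overexpressor and 72.0 ± 9.67 CPM in knockout myotubes (SD, n = 3), after 80.9 ± 3.27, 58.5 ± 3.64 and 80.8 ± 1.70 CPM in myoblasts. It rose on differentiation in control (log2 fold change 2.14, SE 0.11, edgeR adjusted p = 9.38e-12) and stood at -0.17 in the knockout (SE 0.11, adjusted p = 0.191). Exons of another gene on the other strand overlap 9.57% of those of Phf10. Brd7, its bromodomain subunit, was at 223 ± 23.9 CPM in control against 109 ± 7.75 and 105 ± 8.08 CPM in overexpressor and knockout myotubes, lower by -1.03 and -1.08 (SE 0.08 each, adjusted p = 2.82e-09 and 1.31e-09). Arid2, the ARID subunit of PBAF, was lower than control in both clones at both stages, from -0.59 in knockout myoblasts (SE 0.13, adjusted p = 0.00116) to -1.09 in knockout myotubes (SE 0.13, adjusted p = 1.61e-06).

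Smarcc1, Smarcc2 and Smarce1 form much of the scaffold around the ATPase. Smarce1 was called in none of the comparisons with control and none of the comparisons of stage, with log2 fold changes from -0.07 to 0.16. Smarcc2 was lower than control in both clones at both stages, from -0.17 in overexpressor myoblasts to -0.58 in overexpressor myotubes. Smarcc1 was lower in the myoblasts of both clones (-0.50 in the overexpressor and -0.21 in the knockout) and stood at -0.09 and -0.15 in their myotubes, which did not pass the test. Ss18, a BAF subunit, was lower than control in both clones at both stages, from -0.39 to -1.18, and fell on differentiation in each line. Bicral, of the noncanonical form, was lower than control in overexpressor myotubes (-1.10), knockout myoblasts (-0.40) and knockout myotubes (-1.03), with an opposite-strand overlap over 11.3% of its exons.

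Dpf1 and Dpf3, alternative DPF subunits that read histone marks, were at low levels. Dpf3, known for its part in heart and skeletal muscle, had 1 to 10 counts in control myoblasts, 0 to 4 in overexpressor and 51 to 58 in knockout myoblasts. In myotubes it had 101 to 143 counts in control, 59 to 76 in the overexpressor and 208 to 239 in the knockout, which did not overlap. Dpf1, a neuronal form, fell from 8.13 ± 0.59 to 2.09 ± 0.04 CPM in control on differentiation (SD, n = 3) and was at 5.78 ± 0.34 and 6.46 ± 0.61 CPM in overexpressor and knockout myotubes.

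Chromatin remodelers outside SWI/SNF, mainly of the ISWI, CHD and INO80 families and also Smarcad1, Hells and Atrx, served as a further comparison, with 22 of 23 tested. Against control 1 was higher and 2 lower in overexpressor myoblasts, 1 and 5 in knockout myoblasts, 4 and 8 in overexpressor myotubes, and 1 and 13 in knockout myotubes, with medians of -0.04, -0.08, -0.21 and -0.57, where 40.4%, 53%, 57.1% and 68% of all genes were called. In the myotubes 21 of the 22 differed between the clones, 17 of them higher in the overexpressor (median 0.40), against 59.7% of all genes called and 30.6% called higher. The median of the 10 SWI/SNF subunits there was -0.41. That of the 17 other SWI/SNF subunits tested was 0.05, with 5 called higher and 4 lower, so the lower median was that of the 10 listed genes.

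Across the 18 libraries the log2 CPM pattern most like that of Smarcd3, among 10129 genes with a mean of at least 5 CPM, was that of Stk11 (Pearson r 0.99), followed by Gata4 and Med28 (0.98 each) and Cog2 and Pym1 (0.97 each). For Smarca2 it was that of Igsf10 (0.99), Tmem45a (0.98) and Tlr2 (0.97). These correlations describe 6 groups that share lines and stages, so they rest on few independent points.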

How the data were processed

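RNA-seq counts per gene, as deposited, were used for 18 libraries. Per the submitters' processing notes, the authors used FastQC 0.11.7, STAR 2.7.9a on mm10 and featureCounts of Subread 2.0.3. The strand setting and annotation release are not given in the sources used here. A second deposited table, of transformed values, was not used. IDs were matched to GENCODE vM21 symbols (55104 of 55450); the 346 unmatched IDs held 0.0332% of the counts.

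The 10 subunits and all gene lists were chosen with earlier results of these data known. edgeR 4.0.16 (limma 3.58.1, R 4.3.3) was run with TMM factors (0.895 to 1.08), filterByExpr by group and a robust quasi-likelihood fit with 6 group coefficients and 12 residual degrees of freedom, and gave 11 contrasts. P-values were adjusted by Benjamini-Hochberg over 17912 genes with a threshold of 0.05. The Smarcd3 share and 2 log2 ratios were tested by exact permutation of stage within line (8000 arrangements). The fit and the permutation test were tested on simulated data. Named genes were the 10 subunits, the other subunits called with an absolute log2 fold change of at least 1 in any contrast, Smarcc1, Smarcc2 and Smarce1, the patterns most like Smarcd3 and Smarca2 among genes with a mean of at least 5 CPM, and Meg3. Overlapping genes and markers were added beside the results they touch. Alternatives were DESeq2 1.42.0 (size factors and Wald test), library totals as scaling, no filter, only the groups compared, a replicate block, other gene lengths, and each library left out in turn.

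Replicates differed by more than counting noise (chi-square per gene from 4.72 to 118, the highest for replicate C of the overexpressor myotubes). Libraries with the same letter did not deviate together: 4 of 45 correlations were over 0.1 (-0.36 to 0.26), so the letters were not taken as pairs.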

Additional observations from a re-analysis of the deposited data

Results flagged for a closer look

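For the results below, the response to differentiation in a clone differed from that in control by edgeR's test of the difference itself (adjusted p under 0.05). Values are the log2 fold change of myotubes against myoblasts in the clone minus that in control. Both clones were set against the same control libraries.

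In the overexpressor, 6 of the 10 subunits differed, where 39% of all genes were called. The value was -0.69 for Smarca2, -0.75 for Smarcb1, -1.13 for Smarcd2, -0.31 for Arid1a and -0.34 for Arid1b, all below the control response, and 0.30 for Actl6a. The calls of Smarca2, Arid1a and Arid1b were lost with library totals, and that of Arid1a also with DESeq2's size factors and without replicate C of the overexpressor myotubes. Among the other subunits it was 0.40 for Smarcc1, -0.41 for Smarcc2, -0.49 for Brd7, -0.92 for Bicral, 1.83 for Dpf1 and -0.99 for Phf10.

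In the knockout, 6 of the 10 differed, where 50.1% of all genes were called. The value was 0.44 for Smarca4, 0.25 for Smarcd1, 0.65 for Smarcd3 and 0.33 for Actl6a, and it was -1.29 for Smarca2 and -1.01 for Pbrm1. The calls of Smarcd1 and Pbrm1 were each lost in 9 of 12 fits without 1 library, and that of Pbrm1 also with library totals and DESeq2's size factors. Among the other subunits it was -0.50 for Arid2, -0.95 for Brd7, -0.63 for Bicral, 2.29 for Dpf1, -2.50 for Dpf3, -2.31 for Phf10 and -0.59 for Ss18. The Dpf3 value rests on 1 to 10 counts per library in control myoblasts and depends on the prior count.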

How the results depend on the processing

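Of the 110 log2 fold changes of the 10 subunits, 76 were called, 61 of these kept their call and direction under every alternative run, and 15 lost the call in at least 1. No called value changed sign. The causes of these changes were not tested. With only the groups compared, 5 subunits were called between overexpressor and knockout myotubes instead of 8. The mean stage difference of the Smarca2 to Smarca4 ratio ranged from 0.36 to 0.49 with 1 library left out. With library totals, the median of all genes moved from 0.07 to -0.17 on differentiation in control, from -0.08 to -0.24 in the knockout, from -0.04 to 0.11 in overexpressor myotubes and from -0.05 to 0.14 for the difference in response of the overexpressor. The higher share of all called genes moved with it, from 54.0% to 38.0%, from 45.5% to 34.0%, from 45.9% to 57.8% and from 42.7% to 61.0%. With DESeq2's size factors the median moved from -0.04 to 0.07 in overexpressor and from -0.07 to 0.06 in knockout myotubes, and from -0.08 to 0.04 on differentiation in the knockout. For the differences in response it moved from -0.05 to 0.06 (overexpressor) and from -0.12 to 0.04 (knockout), with higher shares of 53.9% and 52.0% instead of 42.7% and 40.4%. The values that changed sign were small and not called. With DESeq2's size factors, and equally with its Wald test, they were Smarcb1 (0.13) and Arid1b (0.051) in knockout myotubes, Smarca4 on differentiation in the knockout (0.11) and the differences in response of Smarca4 in the overexpressor (0.075) and Smarcb1 in the knockout (0.051). With library totals they were Actl6a in overexpressor myoblasts (-0.0097) and between the clones as myotubes (0.030), Smarcb1 in knockout myotubes (0.044), Arid1b on differentiation in the knockout (-0.087) and the overexpressor response of Smarca4 (0.15). With only the groups compared they were Actl6a in overexpressor myoblasts (-0.017), Smarcb1 in knockout myotubes (0.052) and Smarca4 on differentiation in the knockout (0.053). The replicate block, using letters that did not pair the libraries, turned Smarcb1 in knockout myotubes (0.000235) and the overexpressor response of Pbrm1 (-0.025), and lost 5 calls of 76; in 10 of 45 same-letter pairs the library correlated best with its own letter. With 1 library left out, ranges crossed 0 for the overexpressor response of Pbrm1 (-0.34 to 0.24) and Smarca4 (-0.073 to 0.12), Pbrm1 in knockout myoblasts (-0.038 to 0.16), Smarcb1 in knockout myotubes (-0.060 to 0.049), and on differentiation Smarca2 in the overexpressor (-0.045 to 0.24), Smarca4 in the knockout (-0.041 to 0.023) and Smarcd3 in control (-0.045 to 0.046). Library totals added calls on differentiation in control for Smarcb1 (-0.36) and Arid1b (-0.27), in the knockout for Smarca4 (-0.19), for the overexpressor response of Smarcd3 (0.32) and Smarcd1 (0.35), and for Arid1a between the clones as myotubes (0.14). DESeq2's size factors added Arid1b on differentiation in the knockout (0.21) and its knockout response (0.26), which only the groups compared added too (0.20), with Smarcb1 on differentiation in control (-0.19). Depth limited mainly Smarca2 in the overexpressor and Dpf3 in myoblasts, with 77 and 0 counts in their lowest libraries.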
